A study of Rattus norvegicus with 16 samples.

Results

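Cholesterol is made from acetyl-CoA through the mevalonate pathway and a sterol pathway, and 8 genes of it were followed here in rat soleus: Idi1, Fdps, Fdft1, Sqle, Cyp51, Sc5d, Hmgcs1 and Insig1. The genes were chosen by name, and a probe set was taken where its single symbol in the platform annotation was one of them. Of the 8, 7 had such probe sets, 12 in all, among 14217 genes with a probe set of their own, and Hmgcs1 is not analysed here. Sc5d was put on the list because of its difference between trained and sedentary rats of the high-capacity line, so its values in that comparison are a description: no p is given, and whether it is called there is stated without being read as evidence.

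Soleus, a mainly slow postural muscle, was taken from 16 female rats of generation 16 of 2 lines bred from N:NIH stock for high (HCR) or low (LCR) treadmill running capacity. In each line 4 rats ran uphill intervals for 8 weeks, on 5 days per week and 1.5 hours per session at 85 to 90% of maximal oxygen uptake, and 4 age-matched rats stayed sedentary. Rats were about 7 months old at sampling, and trained rats were killed 48 hours after they last ran. Every array held the RNA of 1 rat, so the spread within a group is a spread between animals, and fewer cells of a type cannot be told apart from less RNA per cell in whole muscle. The design compares training in each line, the lines in each training state, and the 2 training responses with each other.

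The end products of the pathway are a component of every membrane and, through side branches, ubiquinone and dolichol. Most of its genes are switched on together by the transcription factor SREBP-2 when sterols in the endoplasmic reticulum run low, and INSIG proteins hold SREBP back when sterols are plentiful. Skeletal muscle makes cholesterol itself, at a lower rate than liver. Idi1 isomerises the 5-carbon isoprene unit, and Fdps joins such units into farnesyl diphosphate. Fdft1 (squalene synthase) commits farnesyl diphosphate to sterols, Sqle (squalene epoxidase) oxidises squalene, Cyp51 removes a methyl group from lanosterol, and Sc5d introduces a double bond in the sterol ring at a late step.

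Of the 7 measured genes, RefSeq promoter entries of assembly GRCr8 were found for Sc5d, Idi1, Fdps, Cyp51 and Insig1. The stretches shown are those of the 4 promoters that held the NF-Y box or the E-box, 2 short motifs bound by transcription factors, because the sterol genes are known as a jointly controlled set. All lie on the minus strand and are written 5′ to 3′, with capitals for CCAAT read on either strand (ATTGG on the opposite one) and for the E-box CACGTG.

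Sc5d, chr8:51538337-51538472: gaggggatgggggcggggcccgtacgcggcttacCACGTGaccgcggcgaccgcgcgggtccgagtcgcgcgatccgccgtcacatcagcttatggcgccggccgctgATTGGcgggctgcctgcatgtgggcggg
Idi1, chr17:66547539-66547609: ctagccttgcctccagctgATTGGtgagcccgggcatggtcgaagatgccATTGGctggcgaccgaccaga
Fdps, chr2:176804876-176804961: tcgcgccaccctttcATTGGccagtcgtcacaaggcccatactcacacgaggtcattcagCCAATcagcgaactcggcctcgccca
Insig1, chr4:8057829-8057974: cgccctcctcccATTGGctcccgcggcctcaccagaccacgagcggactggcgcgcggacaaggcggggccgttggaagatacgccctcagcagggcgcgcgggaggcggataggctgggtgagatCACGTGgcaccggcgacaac

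In the 250 bases before the start site, searched on both strands, CCAAT was present in 4 of these 5 genes, all but Cyp51, and in 34.0% of 33469 promoters in the RefSeq table. It was present in 8 of 11 other sterol enzyme genes with an entry. CACGTG was present in Sc5d, at -161 to -156, and in Insig1, at -79 to -74, in 0 of the 11 other sterol enzymes and in 5.59% of all promoters. A core of the sterol regulatory element, TCACNCCA, was in 0 of the 5 windows, in 3.24% of all promoters and in 1 of the 11 other enzymes, Msmo1. The marked motifs do not overlap in the stretches shown. A match of letters is a description and not a bound site, and these windows were not assayed in the study.

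Values are log2 expression per probe set, on the scale of the deposited arrays, and a difference of 1 is a 2-fold change. Where a gene had several probe sets, the brightest over the 16 arrays stands for it and the others are given beside it. Fdft1 and Fdps were the brightest of the 7 genes' signals, but signals of different probe sets do not rank the genes. Sqle, at a mean of 4.66, and the second probe set of Idi1, at 5.26, lay under a level of 5.61, which 60% of probe sets exceed, so that their differences may be compressed. A gene or probe set is called changed where its adjusted p from limma, over all 31042 probe sets tested, was under 0.05.

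**Figure D1:**
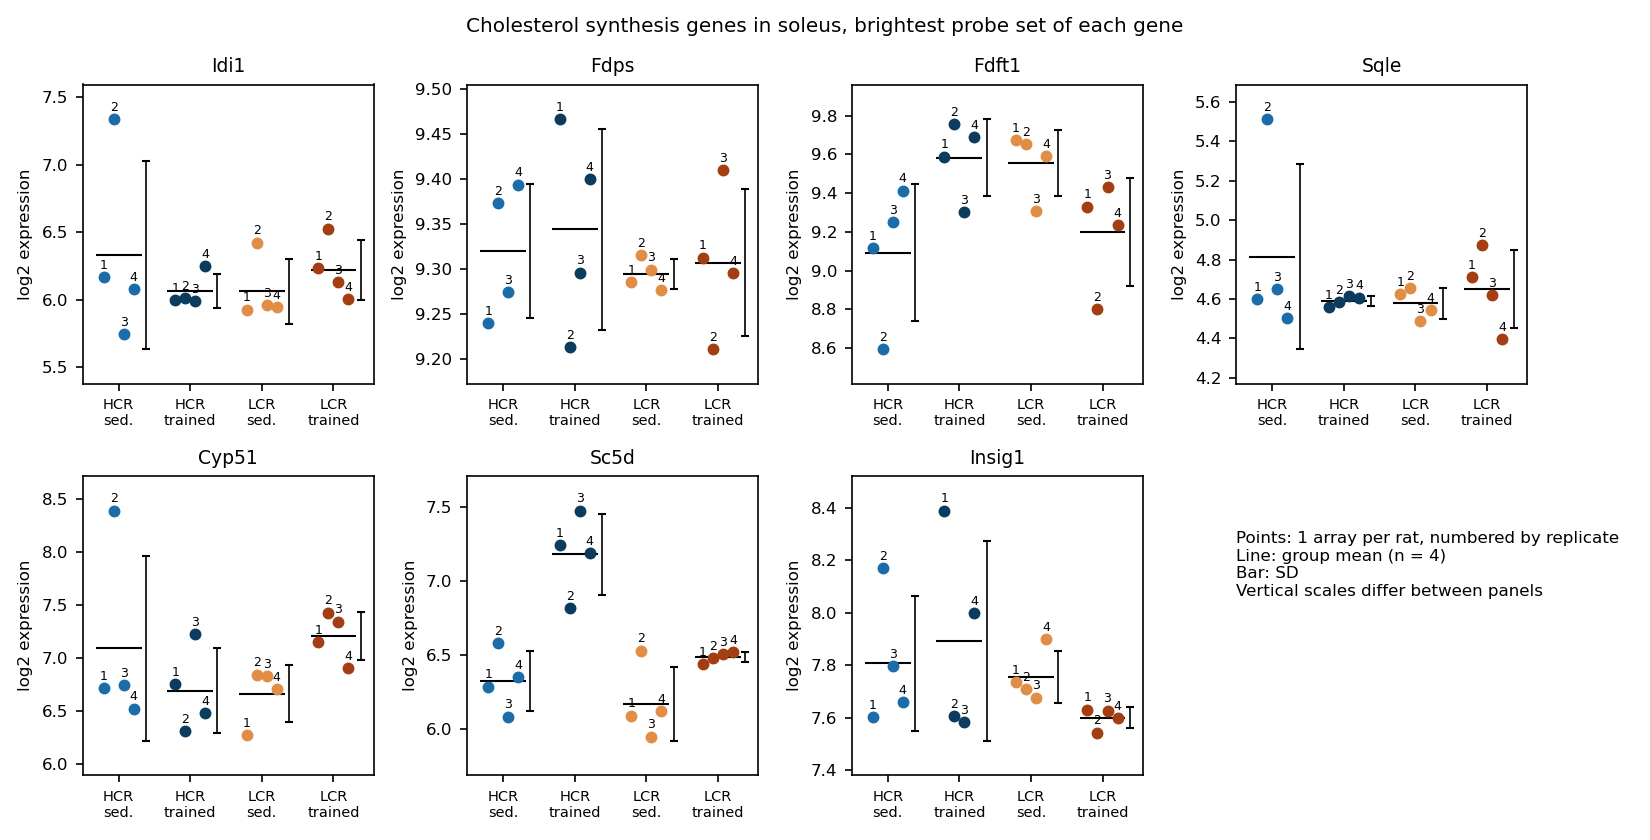
Log2 expression of the 7 measured genes, brightest probe set of each, on the 16 arrays. Each numbered point is 1 rat, lines are group means and bars SD (n = 4), and vertical scales differ between panels. Sc5d is highest in the 4 HCR trained rats, while Idi1, Sqle and Cyp51 have their highest point on the array HCR sedentary 2.

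The arrays HCR trained 3 and HCR sedentary 2 stood apart, and both touch these genes. On the array HCR trained 3 the mean of the slow fibre list (9 of 9 genes measured) was -2.40 and that of the fast fibre list (10 of 11 measured) was 2.47, each centred over the 16 arrays. The other 15 arrays lay between 0.01 and 0.28 for slow fibre genes and between -1.03 and 1.08 for fast fibre genes. On the array HCR sedentary 2 the fibroblast and matrix list (12 of 12 measured) stood at 1.80, above the other 15 arrays, which lay between -0.75 and 1.28. Several differences that move by over 1.5 times or change sign without either array are given with and without it where they are described.

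Sc5d, the late sterol desaturase, was higher in trained than in sedentary HCR rats in its brightest probe set. The 4 sedentary values were 6.29, 6.58, 6.09 and 6.35, and the 4 trained values 7.25, 6.82, 7.48 and 7.19. The groups did not overlap, and the lowest trained rat lay above the highest sedentary one. The means were 6.33 ± 0.20 and 7.18 ± 0.27 (SD, n = 4), a difference of 0.86 (SE 0.14), or 1.81-fold. This was 1 of the 12 member probe sets called changed in that comparison, against 0.187% of all probe sets, and 1 of 12 without overlap against 7.61%. Because this difference put Sc5d on the list, nothing is read from these shares.

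The 3 probe sets of Sc5d did not give the same size of difference. Probe set 1390777_at read 6.14, 6.58, 5.84 and 6.34 in sedentary HCR rats and 6.65, 6.17, 7.35 and 6.36 in trained ones. Probe set 1387926_at read 5.89, 6.69, 5.72 and 5.80 in sedentary HCR rats and 6.23, 5.89, 6.96 and 5.72 in trained ones. In both the groups overlapped, and the one clearly high trained value came from the array HCR trained 3, which was the highest of the 16 arrays in all 3 probe sets. The differences were 0.41 (SE 0.22) and 0.18 (SE 0.25), against 0.86 for 1389111_at. Without HCR trained 3 they were 0.17 and -0.08, while the brightest probe set differed by 0.76. Without HCR sedentary 2 they were 0.53 and 0.40, and 0.94 for the brightest. The call of the brightest probe set was lost when HCR sedentary 1, 2 or 3 or HCR trained 1 or 4 was left out, with differences of 0.84, 0.94, 0.78, 0.84 and 0.86. It was also lost with quantile normalization (0.88), the replicate block (0.86), only the groups compared (0.86) and the beta-actin covariate described with the fibre lists. Calls over all probe sets, 53 higher and 5 lower, fell to 1, 3 and 1 higher and 0 lower without HCR sedentary 1, 2 and 3. Without HCR trained 1 they were 47 and 11, and without HCR trained 4 they were 1 and 0. Quantile normalization left 2 and 1, and the replicate block 1 and 1. Only the groups compared left 0 and 0, and the covariate 1 and 0.

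**Figure D2:**
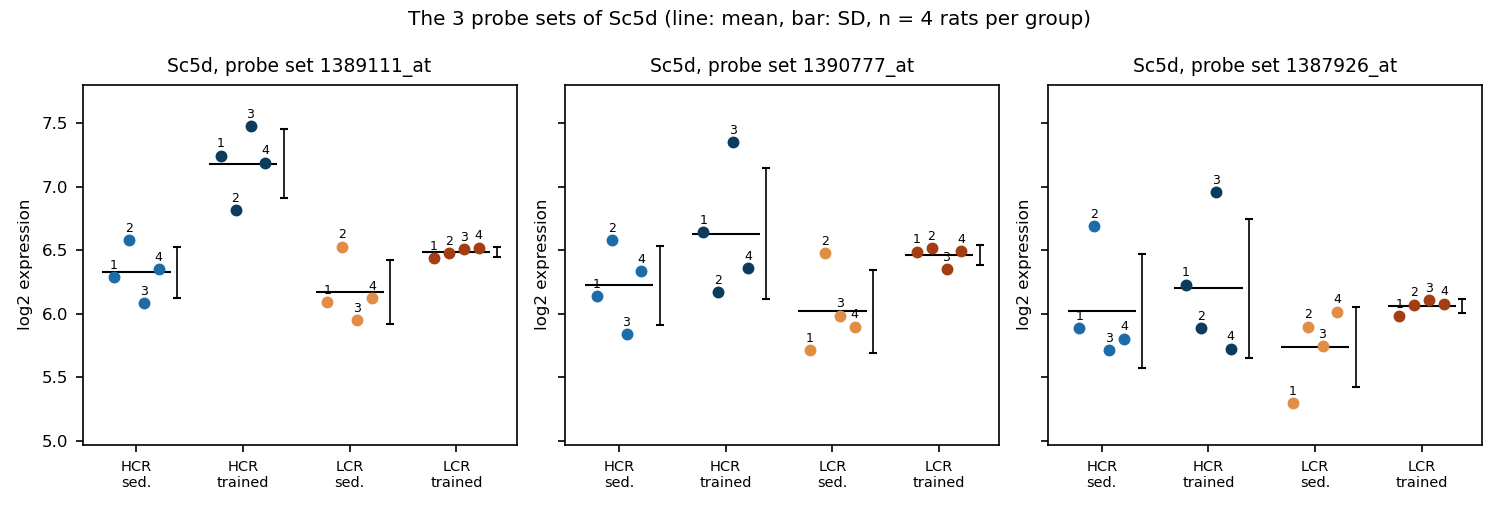
Log2 expression on the 16 arrays for each of the 3 probe sets of Sc5d, on a shared vertical scale, with numbered points for rats, lines for means and bars for SD (n = 4 per group). The HCR trained group stands clear of the others in probe set 1389111_at, with a lowest value of 6.82, and overlaps with the sedentary HCR group in the other two.

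In LCR rats, which share no array with the comparison that singled out Sc5d, the same probe set was 6.09, 6.53, 5.95 and 6.12 in sedentary animals and 6.44, 6.48, 6.51 and 6.52 in trained ones. Trained LCR rats lay close together, and only the sedentary rat LCR sedentary 2 reached their level. The difference was 0.31 (SE 0.14, 95% interval 0.01 to 0.61), or 1.24-fold, and did not pass after adjustment (limma, adjusted p = 0.496). The other probe sets differed by 0.44 (SE 0.22, adjusted p = 0.543) and 0.32 (SE 0.25, adjusted p = 0.689). All 3 differences in LCR were positive, and none passed.

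The order of the group means for the brightest Sc5d probe set was HCR trained (7.18), LCR trained (6.49), HCR sedentary (6.33) and LCR sedentary (6.17). The last 3 overlapped in range. HCR trained rats lay above LCR trained rats without overlap, by 0.70 (SE 0.14), and the other probe sets differed by 0.17 and 0.14, or by -0.07 and -0.11 without HCR trained 3. The difference between the training responses was 0.54 (SE 0.20) for the brightest probe set, and -0.04 and -0.15 for the others. Without HCR trained 3 these were 0.45, -0.28 and -0.40, and without HCR sedentary 2 they were 0.63, 0.08 and 0.08. Averaged over both lines the training difference was 0.59 (SE 0.10). These 3 comparisons contain the HCR trained arrays that put the gene on the list, so they are given as values without a p.

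The fast fibre list was higher in the HCR trained arrays as well, and its values stand beside Sc5d here. The list ranged from 0.31 to 2.47 on HCR trained arrays, from -0.74 to 0.33 on HCR sedentary, from -1.03 to -0.22 on LCR sedentary and from -0.47 to 0.00 on LCR trained arrays. An exact two-sided permutation test gave p = 0.0571 for trained against sedentary HCR rats (adjusted 0.229 over 48 list tests) and p = 0.0286, the smallest possible with 4 against 4, for trained HCR against trained LCR rats (adjusted 0.196). The beta-actin index, the 3' minus the middle control probe set, was also higher in HCR trained (1.57 to 2.37) than in HCR sedentary rats (0.38 to 1.59). The 0.38 was HCR sedentary 2, and the other sedentary HCR arrays read 1.32 to 1.59. With this index as a covariate the Sc5d difference in HCR was 1.04 and was not called. Other lists moved as well. The fibroblast and matrix list differed by -0.89 with HCR training (exact p = 0.0571) and by -0.94 between trained lines (exact p = 0.0286). In sedentary HCR rats that list stood at 1.80 on HCR sedentary 2 and between -0.41 and 0.10 on the others. Trained HCR arrays lay between -0.75 and -0.41, so the HCR difference leaned on HCR sedentary 2. Between trained lines the Schwann cell list differed by 0.22 and the red blood cell list by -0.54, both with an exact p of 0.0286. All of these had an adjusted p of 0.196 or 0.229, and the lists were chosen with earlier results of these data known. The part of any of these in the Sc5d difference was not tested.

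**Figure D3:**
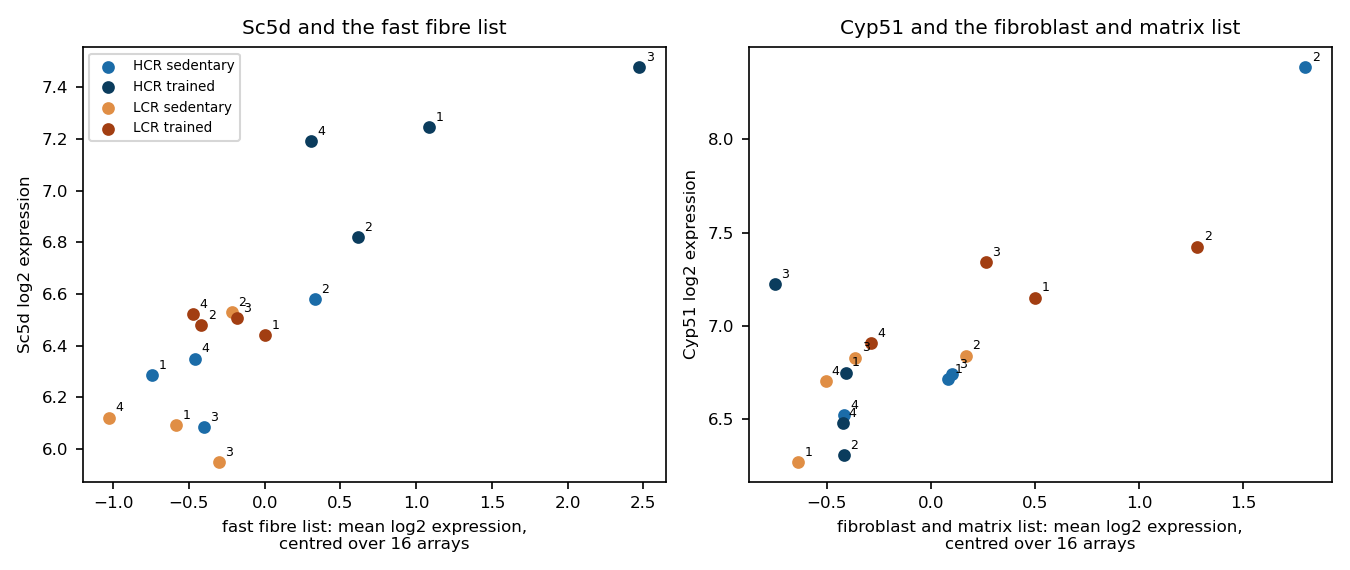
Left, log2 expression of Sc5d (1389111_at) against the mean of the fast fibre list on each of the 16 arrays. Right, log2 expression of Cyp51 (1367979_s_at) against the mean of the fibroblast and matrix list, with lists centred over the arrays and points numbered by rat. HCR trained 3 is at the upper right for Sc5d, and HCR sedentary 2, at 1.80 and 8.39, for Cyp51.

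The genes whose profiles were most like that of Sc5d were found by Pearson r over the 16 arrays, among 10698 genes at or above that level. They were Bzw1 (r = 0.941), Myh4 (0.919), Cuedc2 (0.916), Dennd10 (0.899) and Otud6b (0.874), and Spearman's rho was 0.941, 0.785, 0.885, 0.874 and 0.709 in that order. Myh4 encodes the fastest myosin heavy chain of rat muscle, and Bzw1 a regulator of translation initiation. Part of this likeness is the group difference itself: with group means subtracted r was 0.807, 0.728, 0.697, 0.726 and 0.476. Without HCR sedentary 2 and HCR trained 3, r was between 0.828 and 0.914. Bzw1 ranged from 9.23 to 9.62 in HCR trained rats and from 8.53 to 9.10 in the other 3 groups, and so stood clear of them as Sc5d did. The arrays share their tissue and their processing, and these correlations are a description.

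Of the other 6 genes, Fdft1 came nearest to Sc5d in HCR rats. Fdft1 was higher in trained animals by 0.49 (SE 0.17, 95% interval 0.13 to 0.85), and by 0.40 (SE 0.17) in its second probe set, but was not called. Insig1 was higher by 0.09 and Fdps by 0.02, while Cyp51 was lower by 0.40, Idi1 by 0.27 and Sqle by 0.22. The median over the 7 genes was 0.02, and 4 of 7 were positive, beside a median of 0.02 and 55.2% positive over all 14217 genes. Sc5d, which was listed because it was higher here, is 1 of these 4. The 3 lower values came from 1 sedentary rat, as the arrays show. Without HCR sedentary 2 the differences were 0.03 for Cyp51, 0.07 for Idi1, 0.01 for Sqle, 0.04 for Fdps, 0.21 for Insig1 and 0.32 for Fdft1. All 7 genes, Sc5d among them, were then positive, with a median of 0.07, beside 56.3% and a median of 0.02 over all genes. Without HCR trained 3 as well, 6 of 7 were positive, with a median of 0.09, beside 57.3% and 0.03 over all genes. Cyp51 was the exception, with means of 6.66 in sedentary and 6.51 in trained HCR rats. Because the sign of Sc5d was fixed by its listing, nothing is read from these counts.

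Cyp51, lanosterol demethylase, read 6.71, 8.39, 6.74 and 6.52 in sedentary HCR rats and 6.75, 6.31, 7.22 and 6.48 in trained ones. Its probe set 1367979_s_at carries a suffix that marks probes shared by several transcripts. All but HCR sedentary 2 lay between 6.31 and 7.22, the upper value being HCR trained 3. In LCR rats it read 6.27, 6.84, 6.83 and 6.70 sedentary and 7.15, 7.42, 7.34 and 6.91 trained, and every trained rat was above every sedentary rat. The LCR means were 6.66 ± 0.27 and 7.21 ± 0.23 (SD, n = 4), a difference of 0.55 (SE 0.33, 95% interval -0.16 to 1.25), which did not pass (limma, adjusted p = 0.604). The fit pools the spread of all 4 groups, and HCR sedentary rats had an SD of 0.87 for this probe set. With LCR training the fibroblast and matrix list differed by 0.77 (exact permutation p = 0.0571), the endothelium list by 0.26 and the Schwann cell list by -0.21 (both exact p = 0.0286, adjusted 0.196), and their part in the Cyp51 values was not tested.

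The second Cyp51 probe set, 1387020_at, did not share that pattern. It lay between 6.08 and 6.26 in sedentary LCR rats and between 6.004 and 6.25 in trained ones, a difference of -0.04. Its highest value of the 16 arrays, 6.65, was again on HCR sedentary 2. Training differed between the lines by -0.95 for the first probe set (SE 0.47, adjusted p = 0.295) and by -0.06 for the second, or by -0.51 and 0.08 without HCR sedentary 2.

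Fdft1, squalene synthase, gave differences of opposite sign with training in the lines, none of which passed. Sedentary HCR rats read 9.12, 8.60, 9.25 and 9.41, and trained HCR rats 9.59, 9.75, 9.30 and 9.69. Sedentary LCR rats read 9.67, 9.65, 9.31 and 9.59, and trained LCR rats 9.33, 8.80, 9.43 and 9.23. The sedentary LCR and trained HCR groups were high, at 9.56 ± 0.17 and 9.58 ± 0.20, and the other 2 were lower, at 9.09 ± 0.35 and 9.20 ± 0.28 (SD, n = 4), with ranges that overlap.

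The difference between the training responses was 0.85 (SE 0.24, 95% interval 0.33 to 1.36), which did not pass (limma, adjusted p = 0.125), and the second probe set, 1389906_at, gave 0.56 (SE 0.24, adjusted p = 0.230). Training in LCR alone gave -0.36 (SE 0.17, 95% interval -0.72 to 0.01, adjusted p = 0.520) and -0.16 in the second probe set. Between sedentary rats HCR was below LCR by -0.46 (SE 0.17, adjusted p = 0.565) and -0.42, the only 2 of the 12 probe sets with an unadjusted p under 0.05 there. The lowest Fdft1 value of the 16 arrays was on HCR sedentary 2 in both probe sets, followed by LCR trained 2. Without HCR sedentary 2 the first probe set differed by 0.32 with HCR training, by -0.30 between sedentary lines and by 0.68 between the training responses, and the second by 0.24, -0.25 and 0.40.

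Idi1 was similar in most rats. It read 6.17, 7.34, 5.74 and 6.08 in sedentary HCR rats, 5.998, 6.01, 5.99 and 6.25 in trained HCR rats, 5.92, 6.42, 5.96 and 5.94 in sedentary LCR rats and 6.23, 6.53, 6.13 and 6.002 in trained LCR rats. The one value above 7 was HCR sedentary 2, and the groups overlapped in every comparison. Training in LCR gave 0.16 (SE 0.25, 95% interval -0.38 to 0.70, adjusted p = 0.860), and the dimmer probe set, 1388872_at, stayed between 5.06 and 5.64 on all arrays.

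Sqle, which sterols switch strongly in many cells, read 4.60, 5.51, 4.65 and 4.50 in sedentary HCR rats. The other 12 arrays lay between 4.40 and 4.87, the highest of them LCR trained 2. Training in LCR gave 0.07 (SE 0.17, 95% interval -0.29 to 0.43, adjusted p = 0.911), on a signal near the lower end of the scale.

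Fdps, which makes farnesyl diphosphate, was the steadiest. All 16 arrays lay between 9.21 and 9.47. Training gave 0.02 in HCR (95% interval -0.11 to 0.16) and 0.01 in LCR (95% interval -0.12 to 0.15, adjusted p = 0.962), so that a change beyond 0.16 in either direction lies outside both intervals.

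Insig1, the sterol-sensing brake on SREBP, is itself a target of SREBP. Sedentary HCR rats read 7.60, 8.17, 7.80 and 7.66, and trained HCR rats 8.39, 7.60, 7.58 and 8.00. Sedentary LCR rats read 7.73, 7.71, 7.68 and 7.90, and trained LCR rats 7.63, 7.54, 7.63 and 7.60. Trained LCR rats all lay below sedentary LCR rats, but by -0.16 only (SE 0.16, 95% interval -0.49 to 0.18, limma adjusted p = 0.765), while HCR trained rats were spread over the whole range. HCR trained exceeded LCR trained rats by 0.30 (SE 0.16, adjusted p = 0.309), and by 0.13 without HCR trained 1. Without HCR trained 3 the trained HCR mean was 8.00, against 7.89 with it and 7.81 in sedentary HCR rats.

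**Figure D4:**
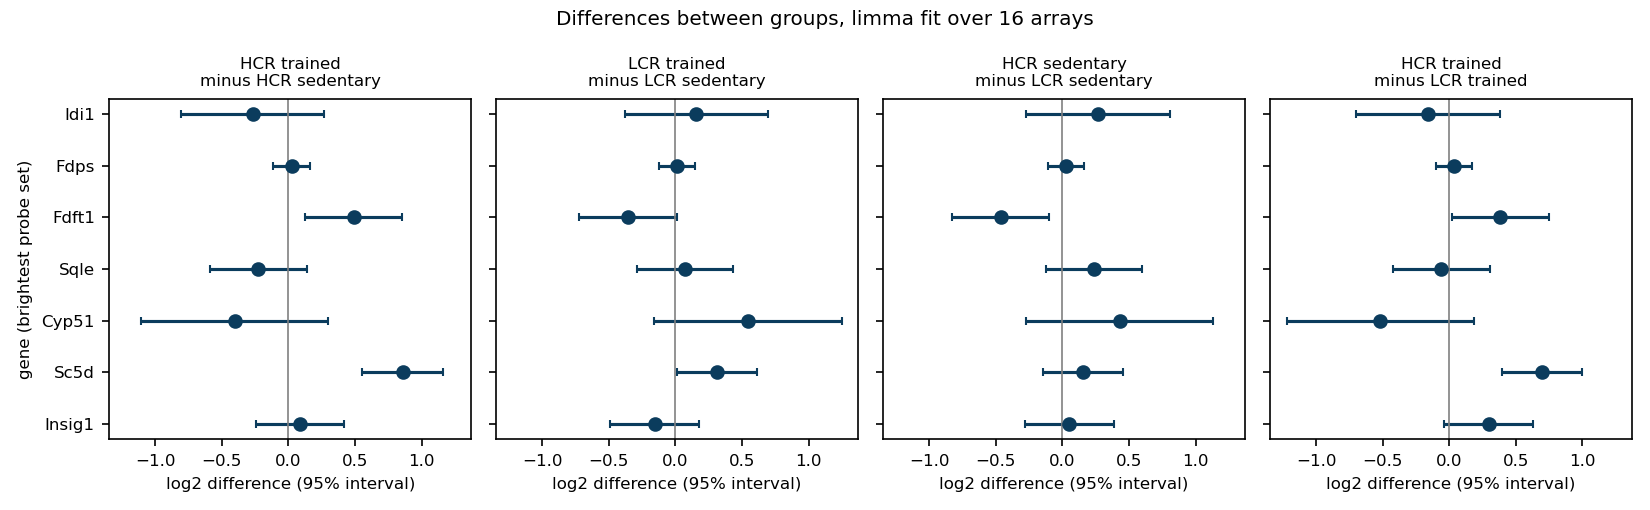
Differences in log2 expression between groups for the brightest probe set of each of the 7 genes, with 95% intervals from the limma fit over 16 arrays (n = 4 rats per group). For Sc5d the intervals describe spread and are not a test where HCR arrays, trained or sedentary, enter. Sc5d stands at 0.86 for HCR training and 0.70 between trained lines, and Fdps stays within 0.04 of 0 throughout.

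Counts over the 12 probe sets read as follows. With LCR training 0 were called (limma; 1 had an unadjusted p under 0.05, as did 9.76% of all probe sets), against 0.00322% of all probe sets, and 2 of 12, Cyp51 higher and Insig1 lower, had groups that did not overlap, against 8.5%. Between sedentary lines 0 were called (2 with an unadjusted p under 0.05, beside 8.37% of all), against 0.00966%, and 0 of 12 stood without overlap, against 4.87%. Between trained lines 0 were called, against 0.374%, and 1 was called without HCR trained 2, where 10 of all probe sets were called higher and 11 lower. The 2 with an unadjusted p under 0.05, beside 19.7% of all, were the brightest probe sets of Sc5d and Fdft1. Only the first Sc5d probe set had no overlap, against 13.6%.

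For the difference between the training responses 0 of 12 were called, against 0.0% of all probe sets. The 3 with an unadjusted p under 0.05, beside 18.3% of all, were the brightest Sc5d probe set and both of Fdft1. For training over both lines 0 were called, against 0.00644%, and 1 was called without HCR sedentary 2, HCR trained 3 or LCR sedentary 2. Of all probe sets 10, 61 and 46 were then called higher, and 3, 11 and 4 lower, in that order. The 2 with an unadjusted p under 0.05, beside 9.55% of all, were 2 of the 3 Sc5d probe sets, 1389111_at and 1390777_at. For line over both training states 0 were called, against 0.087%. The 1 with an unadjusted p under 0.05, beside 10.4% of all, was the brightest Sc5d probe set. Sc5d was listed for its difference between trained and sedentary HCR rats, so nothing is read from its part in the counts where arrays of either group enter. Medians over the 7 genes were 0.07 for LCR training and 0.15 between sedentary lines, beside -0.03 and -0.00 over all genes. In sedentary rats 6 of the 7 genes were higher in HCR, all but Fdft1, beside 49.0% of all genes, and 5 of these 6, all but Fdps, had their highest sedentary HCR value on HCR sedentary 2. Without that array 3 of the 7 were higher in HCR, with a median of -0.00, beside 48.7% of all genes. Sc5d is counted here too, and this comparison shares the HCR sedentary arrays with the one that put it on the list.

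The array HCR sedentary 2 carried the widest movement of these genes in the study. Against the mean of the other 3 sedentary HCR rats, Cyp51 was higher by 1.73 (3.32-fold), Idi1 by 1.34 (2.54-fold), Sqle by 0.93 (1.91-fold) and Insig1 by 0.49 (1.40-fold). The 3 Sc5d probe sets were higher by 0.34, 0.47 and 0.89. Msmo1, the methylsterol oxidase of the sterol part, read 8.42 there against 7.23 to 7.51, a gap of 1.09 (2.12-fold).

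The pathway did not move as 1 block on that array. Fdps was 0.07 above the other 3 rats, Fdft1 stood at -0.66 and -0.65, Pmvk, a kinase of the mevalonate part, at -0.44, and Srebf1, the SREBP that drives fatty acid genes, at -0.67. Srebf2 was at 0.36 and Scap, the SREBP escort, at 0.47. Of the 12 member probe sets, 9 lay above all 3 other rats on this array, beside 28.7% of all probe sets, and 5 were the highest of the 16 arrays, beside 13.3%. Of 12 other sterol enzymes measured, 6 lay above all 3 other rats, beside 31.8% of all genes.

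Markers of other cells moved with that array. All 12 fibroblast and matrix genes were above the other 3 rats' mean there, with a median of 1.97, and 12 of 13 macrophage and leukocyte genes were, with a median of 1.23. Of the Schwann cell list 3 of 10 were above, with a median of -0.21, and of the adipocyte list 1 of 10, with a median of -0.58. Of the fast fibre list 8 of 10 were above, with a median of 0.37, and of the slow fibre list 1 of 9, with a median of -0.19. The beta-actin index was lowest of all arrays there, at 0.38. The part of these in the sterol gene values was not tested. LCR trained 2 had the next highest matrix list, at 1.28. It was the highest LCR trained array for Cyp51, Idi1 and Sqle and the lowest for Fdft1. Insig1, which was higher on HCR sedentary 2, was instead lowest of all arrays on LCR trained 2, at 7.54. Fdps was also lowest of all arrays there, at 9.21. The brightest Sc5d probe set read 6.48 there, within the other LCR trained values, which ran from 6.44 to 6.52.

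**Figure D5:**
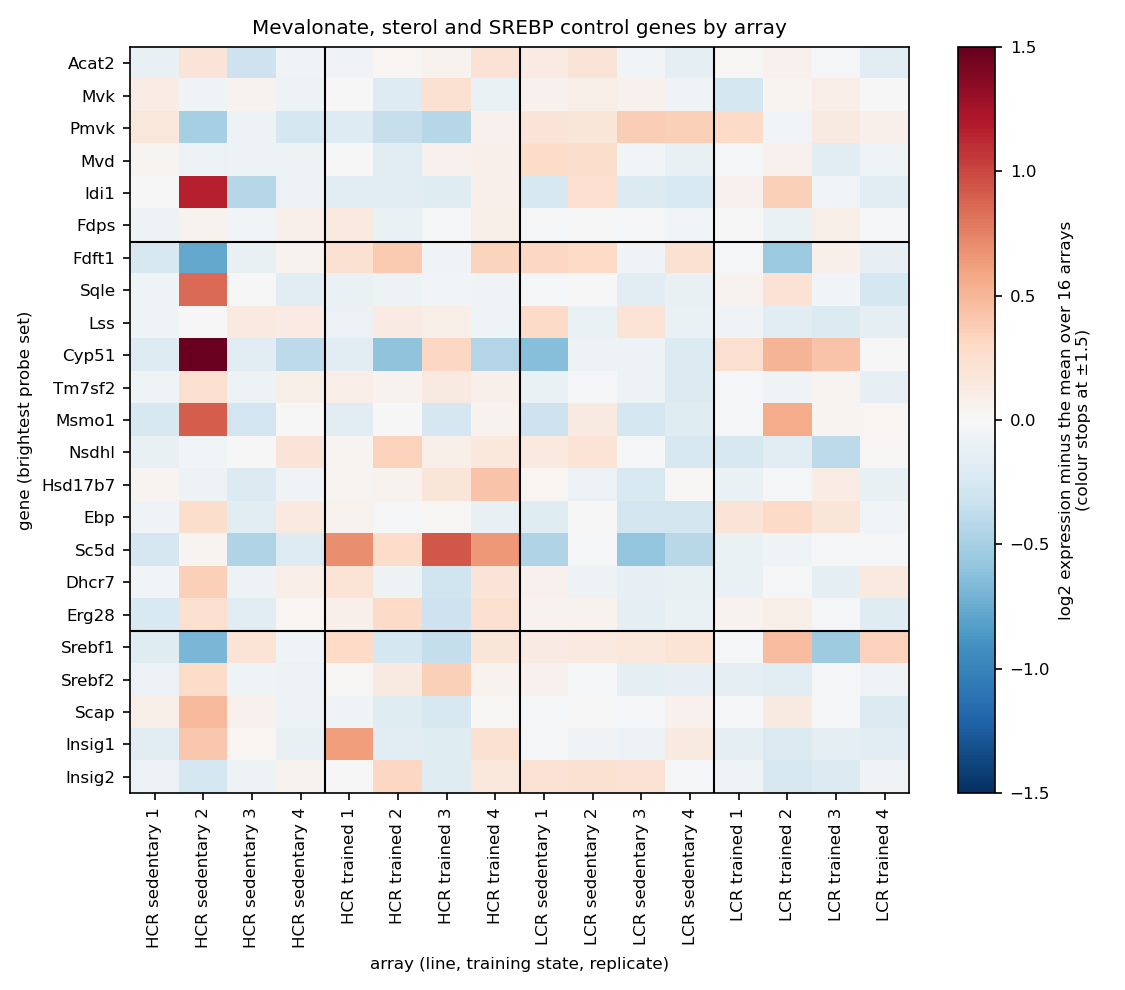
Log2 expression of 23 genes of the mevalonate part, the sterol part and SREBP control on the 16 arrays, each gene centred on its mean, with colours that stop at 1.5 either way. The column of HCR sedentary 2 is red for Idi1, Sqle, Cyp51 and Msmo1 and blue for Fdft1 and Srebf1, and the row of Sc5d is red over the 4 HCR trained arrays.

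The wider pathway list held 75 further genes, of which 66 were measured, and 0 of these passed in any of the 7 comparisons (limma). With HCR training 6 of 66 were higher and 1 lower at an unadjusted p under 0.05, beside 13.3% and 5.79% of all genes. With LCR training 4 were higher and 5 lower, beside 3.70% and 7.00%. Among the 12 other sterol enzymes the median difference was 0.01 with HCR training and -0.02 with LCR training, with 6 of 12 positive in each. For the 10 measured SREBP control genes it was 0.12 and -0.04.

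The largest positive differences in the list with HCR training were in fatty acid synthesis, and 2 rats carried them. Scd, the stearoyl-CoA desaturase, read 10.77, 6.95, 7.25 and 11.01 in trained HCR rats and 8.04, 7.44, 7.90 and 7.59 in sedentary ones. Thrsp, a lipogenic regulator, read 9.99, 6.49, 7.20 and 10.18 in the trained rats, and Fasn, fatty acid synthase, 10.36, 7.98, 7.20 and 10.96. HCR trained 1 and HCR trained 4 were high in all 3 genes and the other two trained rats were not, so that the differences of 1.26 (SE 0.87, adjusted p = 0.477), 1.43 (SE 0.75, adjusted p = 0.342) and 0.93 (SE 0.64, adjusted p = 0.471) did not pass. Without HCR trained 3 they were 1.84, 1.85 and 1.57.

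The adipocyte list was also highest on those 2 arrays, at 1.06 and 0.86, against -1.05 to 0.43 on the other 14, and its part in the fatty acid genes was not tested. Sc5d did not divide the HCR trained rats in this way, since its highest value was on HCR trained 3. Insig1 did in part: its 2 highest trained HCR values, 8.39 and 8.00, were on HCR trained 1 and HCR trained 4.

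With LCR training 8 of the 15 fatty acid genes measured were positive, and the lowest were Scd at -1.16 (SE 0.87, adjusted p = 0.676) and Thrsp at -0.63 (SE 0.75, adjusted p = 0.805). The difference between the training responses was 2.42 for Scd (SE 1.23, adjusted p = 0.309) and 2.06 for Thrsp (SE 1.07, adjusted p = 0.316). Apoe, which encodes an apolipoprotein, differed by -0.74 with HCR training (adjusted p = 0.318), or -0.34 without HCR sedentary 2, and by 0.56 with LCR training (adjusted p = 0.639). Its response differed between lines by -1.30 (SE 0.53, adjusted p = 0.214), or -0.90 without that array. None of these passed.

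Between the lines over both training states, Pmvk was lower in HCR by -0.39 (SE 0.09, adjusted p = 0.198) and Ggps1, which lengthens farnesyl diphosphate, by -0.37 (SE 0.10, adjusted p = 0.252). Lipa, the lysosomal acid lipase that frees cholesterol from esters, was higher by 0.36 (SE 0.11, adjusted p = 0.298). In sedentary rats alone Coq2, of ubiquinone synthesis, differed by -0.67 (SE 0.26, adjusted p = 0.586), or -0.38 without HCR sedentary 2. Over both lines Rnf139, a ligase tied to SREBP control, was 0.43 higher with training (SE 0.12, adjusted p = 0.240). These are among the 3 largest differences in either direction in their comparison, and none passed.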

How the data were processed

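Total RNA from 20 mg of soleus of each rat was measured on rat whole-genome arrays, 1 array per rat. The authors deposited 1 log2 value for each probe set on each array. The submitters' processing notes name RMA, which subtracts background, equalises array distributions and summarises probes, and limma, without versions. After RMA, a shift shared by the whole array is no longer visible, and the values carry no detection calls. Precision is limited by the number of arrays.

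Of 31099 probe sets, 57 controls were left out. Of the 31042 tested, 20826 had 1 symbol in the platform annotation, 436 several and 9780 none. Probe sets with several symbols named no gene. Of the first, 20758 matched RefSeq GRCr8 by gene identifier, with 0 symbols changed. Promoter sequences are RefSeq's, of assembly GRCr8.

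limma 3.58.1 in R 4.3.3 was fitted with 4 group means over 16 arrays (12 residual degrees of freedom), with empirical Bayes moderation and Benjamini-Hochberg adjustment over all probe sets at 0.05. The fit was tested on simulated data. Marker lists were compared by exact two-sided permutation of 4 against 4 arrays. Comparisons that share a group share its 4 arrays. Scan dates were not used.

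The members and the lists were chosen with earlier results of these data known. Named are all members, pathway genes that passed and, in each comparison, the 3 largest differences each way at or above the 40th percentile (a selection of these is printed), and the 5 genes closest in profile to Sc5d and to the mean of the other members. Msmo1, Srebf1, Srebf2 and Scap were named after their values were seen. Alternatives were other normalizations, array weights, quality covariates, the replicate block, other probe sets, only the groups compared and leaving out arrays.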

Additional observations from a re-analysis of the deposited data

Results flagged for a closer look

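Dixon's ratio at its 95% critical value was applied to each member probe set in each group of 4 rats, 48 groups in all. It set 5 apart, where chance alone gives about 2.4. The array HCR sedentary 2 held a pair of them: Cyp51 at 8.39, with the other 3 sedentary HCR rats between 6.52 and 6.74, and Sqle at 5.51, with the others between 4.50 and 4.65. Idi1 was set apart on HCR trained 4, at 6.25 against 5.99 to 6.01, and on LCR sedentary 2, at 6.42 against 5.92 to 5.96. The second Sc5d probe set was lowest on LCR trained 3, at 6.35 against 6.49 to 6.52.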

How the results depend on the processing

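Of 721 recomputed differences over 35 results, 653 kept their direction and their side of the threshold, 48 turned direction, 8 newly passed and 12 no longer passed. The brightest Sc5d probe set with HCR training lay between 0.76 and 1.04 in every setting run on it. In a check chosen after seeing the data, its other probe sets without HCR trained 3 gave 0.169 and -0.0773. The count of member probe sets called for HCR training, 1, fell to 0 with quantile normalization, with the beta-actin covariate, with the replicate block and with only the groups compared. It was between 0 and 1 when 1 array was left out, 0 without HCR sedentary 1, 2 or 3 or HCR trained 1 or 4. Between trained lines the count, 0, became 1 with quantile normalization and with only the groups compared, 3 with array weights and 2 without HCR sedentary 2 and HCR trained 3 together, and lay between 0 and 1 with 1 array left out. Over all 31042 probe sets the calls there, 61 higher and 55 lower, became 79 and 61 with quantile normalization and 275 and 561 with only the groups compared. They became 1862 and 1663 with array weights and 793 and 522 without both arrays. For training over both lines, 0 became 2 with array weights and 1 without both arrays, with 0 to 1 on leaving out 1 array (1 without HCR sedentary 2, HCR trained 3 or LCR sedentary 2), and for line over both states 0 became 1 with array weights. Over all probe sets the training calls, 2 higher and 0 lower, became 794 and 354 with array weights and 102 and 29 without both arrays. The line calls, 11 higher and 16 lower, became 192 and 146 with array weights. Cyp51 between trained lines newly passed without both arrays (-0.70, limma adjusted p = 0.033) and with array weights (-0.65), and Insig1 with array weights (0.42). The 2 arrays were singled out in these data and hold the highest Cyp51 values of sedentary and trained HCR rats, 8.39 and 7.22. Nothing is therefore read from that p. The second Cyp51 probe set differed by 0.03 between trained lines over all arrays.

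Replicate numbers gave little sign of pairing: 8 of 24 same-numbered pairs correlated above 0.1 and 7 of 24 correlated best with their own number. The correlations ran from -0.48 to 0.57, and such a check cannot show that rats were not paired. The replicate block took the calls over all probe sets for HCR training from 58 to 2 and the member count to 0.

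With the beta-actin covariate these turned: for HCR training Cyp51 to 0.49, Idi1 to 0.21 and Sqle to 0.11; for LCR training Idi1 to -0.094, Sqle to -0.11 and Fdps to -0.0101; between sedentary lines Cyp51 to -0.15, Idi1 to -0.045, Insig1 to -0.13 and Fdps to -0.0027; between trained lines Cyp51 to 0.26, Idi1 to 0.26 and Sqle to 0.24; and for the difference of responses Cyp51 to 0.41, Idi1 to 0.30 and Sqle to 0.22. Quantile normalization turned Fdps to -0.00997 (HCR training) and -0.031 (difference of responses), and array weights Idi1 to 0.045 (HCR training) and Insig1 to -0.041 (sedentary lines). Without both arrays, HCR training gave 0.092 for Idi1 and 0.00057 for Sqle, and sedentary lines -0.069 for Idi1, -0.0022 for Cyp51 and -0.069 for Insig1. Other probe sets turned Cyp51 to -0.038 (LCR training) and 0.031 (trained lines), and Sc5d to -0.036 and -0.15 (difference of responses). The cause was not tested.

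Leaving out 1 array, the differences that turned ranged, for HCR training, from -0.59 to 0.0302 (Cyp51), -0.47 to 0.067 (Idi1), -0.33 to 0.0083 (Sqle), -0.078 to 0.21 (Insig1) and -0.017 to 0.067 (Fdps). For LCR training they ranged from -0.0017 to 0.16 (Sqle) and -0.021 to 0.045 (Fdps), between sedentary lines from -0.0022 to 0.62 (Cyp51), -0.069 to 0.46 (Idi1) and -0.069 to 0.12 (Insig1), and between trained lines from -0.14 to 0.015 (Sqle) and -0.0041 to 0.0802 (Fdps). For the difference of responses Fdps ranged from -0.0299 to 0.054. With 4 rats per group, differences of the size seen in most members are within the spread between animals.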

Other observations

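The genes whose profiles were most like the mean of the 6 measured members other than Sc5d, each centred, were Lrrc59 (r = 0.924 over 16 arrays), Slc9a9 (0.921), Thy1 (0.905), Arpc2 (0.903) and Uxs1 (0.902). Thy1 encodes a surface protein of fibroblasts and neurons, and Arpc2 a subunit of the actin-branching Arp2/3 complex. Thy1 read 9.14 at its highest in sedentary HCR rats and between 5.58 and 6.64 in the other 3 groups. Without HCR sedentary 2 and HCR trained 3, r was 0.641, 0.824, 0.515, 0.605 and 0.807 in the same order. The likeness of Lrrc59, Thy1 and Arpc2 therefore rested in large part on those 2 arrays, and that of Slc9a9 and Uxs1 less so. These are descriptions over arrays that share tissue and processing.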
